A study of Drosophila melanogaster with 9 samples.

Results

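The genes described here are 10 nuclear receptors of *Drosophila melanogaster*: the ecdysone receptor *EcR* and its partner *usp*, the ecdysone-regulated receptors *Eip75B*, *Eip78C*, *Hr4*, *Hr39* and *Hr78*, and the metabolic receptors *Hr96*, *ERR* and *Hnf4*. They were taken by FlyBase symbol from the 17489 genes counted, and all 10 were found. They make up 10 of the 21 receptors of the fly family listed here, and the other 11 serve only for comparison. RNA was sequenced from central brains of male *w1118CS* flies (7 days old), in pools of 10 brains, with 3 samples for each nutritional state. Refed flies had been kept on water from the evening before and then fed 400 mM D-glucose for 2 h. Sated flies had kept their food through the morning meal and were without it for only 1 h before dissection. Fasted flies were given water alone for 20 h. All flies were of the same strain and came from the control diet (CD in the sample names) of a study that also used a high-sugar diet, and no gene was manipulated. Each sample is a pool of central brains, so fewer cells of a type and less RNA per cell cannot be told apart.

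Nuclear receptors are transcription factors that bind DNA through zinc fingers, and many of them change their activity when a small lipophilic ligand binds. Ecdysone, the insect steroid hormone, acts through a heterodimer of EcR and Usp, which switches on a cascade of further receptors such as Eip75B and Hr4 at molting and metamorphosis. Adult flies keep making the hormone, and its receptor has known roles in neurons, in memory and in sleep. Another branch of the family reads metabolic state, and *ERR* and *Hnf4* are known for switching on glycolysis and the burning of fat at other stages and in other tissues of the fly.

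The libraries held between 4957138 and 7897838 counts on the genes' own strand. In 6 of them the opposite strand took between 9.59% and 12.4% of the counts on genes. It took 20.6% in sated sample 2, 24.6% in fasted sample 1 and 28.5% in fasted sample 2. Refed sample 3 stood apart in another way, with 0.41 CPM (CPM, gene-strand counts scaled to the library's total with TMM) of *Akh*, the gene of the adipokinetic hormone made in the corpora cardiaca, against 27.9 to 84.5 CPM in the other 8 samples. Brain markers were high throughout, with summed levels of 6198 to 7243 CPM for the 4 neuronal genes and 2236 to 2596 CPM for the 5 glial genes. Retinal genes summed to between 1248 and 2119 CPM, and *apolpp*, a lipoprotein gene of the fat body, reached 2373 CPM although the other 4 fat body markers stayed at or below 1.41 CPM. Results that touch these libraries or markers carry the values beside them.

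All 10 receptors were detected in every sample, and levels differed far more between receptors than between nutritional states. Per kilobase of exon, *Eip75B* stood first with a median of 47.57 CPM per kb over the 9 samples, followed by *EcR* at 38.04, *Eip78C* at 25.54, *Hr39* at 23.98 and *usp* at 17.57 CPM per kb. *Hr78* (13.95 CPM per kb), *ERR* (12.89) and *Hr96* (12.49) formed a close group, *Hnf4* lay below them at 6.05 CPM per kb, and *Hr4* came last at 0.60 CPM per kb. Among the 10 medians *Eip75B* lay at percentile 87.7 of the genes tested, *Hnf4* at percentile 34.7 and *Hr4* at percentile 2.71.

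The order was the same in all 9 samples for 6 of the 9 neighboring pairs. *Eip78C* lay above *Hr39* in 8 samples, *ERR* above *Hr96* in 7 and *Hr78* above *ERR* in 6, and the ranges of each of these pairs overlapped. The ranges of *Eip75B* and *EcR* overlapped as well, although *Eip75B* was the higher of the pair within each sample. Between the lowest and the highest of the 9 samples, CPM differed 1.16-fold for *Eip78C*, the steadiest of the 10, and 1.82-fold for *Hr4*, the most variable.

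**Figure D1:**
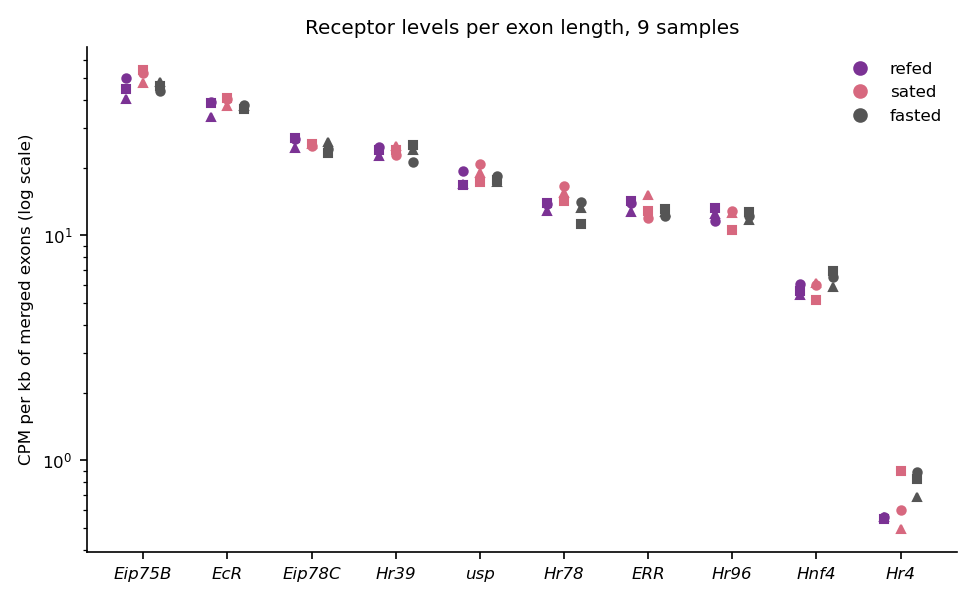
Level of each receptor in CPM per kilobase of merged exons (vertical axis, log scale) in refed, sated and fasted samples (circles, squares and triangles are replicates 1, 2 and 3). Medians fall from 47.57 for *Eip75B* to 0.60 for *Hr4*, and the 3 nutritional states lie close together within each receptor.

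No receptor among the 10 passed an adjusted p of 0.05 (edgeR's quasi-likelihood test, Benjamini-Hochberg over all genes tested) in any comparison of nutritional states. Over all genes, 0.111% of the 9025 tested passed in refed against fasted brains, 0.268% of 8957 in sated against fasted brains and 0.179% of 8931 in refed against sated brains. Any pair of these comparisons shares the samples of a group, so their values are given side by side and are not independent. At an unadjusted p under 0.05 the counts were 1 of 10 receptors in refed against fasted brains (all genes: 6.77%), 2 of 10 in sated against fasted brains (9.72%) and 2 of 10 in refed against sated brains (11.5%). These belong to 3 genes, *Hr4*, *Eip75B* and *Hr78*. For the 9 receptors other than *Hr4*, 95% intervals of the fold change ran within 0.766 to 1.21 in refed against fasted brains, 0.774 to 1.40 in sated against fasted brains and 0.769 to 1.19 in refed against sated brains. These are single unadjusted intervals of the main fit. Counts made without regard to strand gave larger values for *ERR*, as given below. DESeq2, the tool of the study's own methods, also called none of the 10.

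The median log2 fold change of the 10 receptors was −0.004 in refed against fasted brains (all genes −0.008), 0.06 in sated against fasted brains (all genes −0.001) and −0.06 in refed against sated brains (all genes −0.003). Fitted values of the receptors lay above 0 for 5, 7 and 3 of the 10 in these comparisons (all genes: 47.1%, 49.8% and 49.1%). Their median size without regard to sign was 0.05, 0.09 and 0.07 on the log2 scale, beside 0.09, 0.10 and 0.11 over all genes tested.

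**Figure D2:**
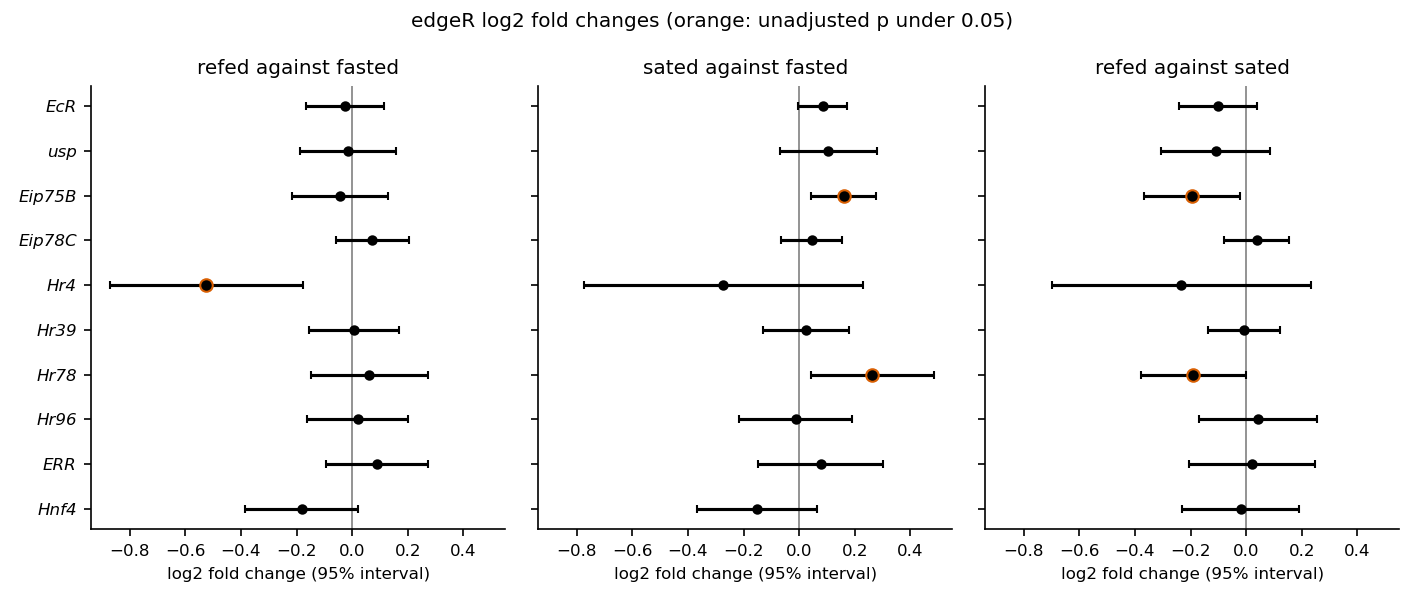
Log2 fold change of each receptor with its 95% interval (horizontal axis) in the 3 comparisons, each fitted on 3 against 3 samples; points ringed in orange have an unadjusted p under 0.05. *Hr4* in refed against fasted brains (−0.52) lies farthest from 0 and no point passed the adjusted threshold.

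*EcR* encodes the receptor that binds ecdysteroids (BDGP6, chromosome arm 2R, 6087873 to 6169087, minus strand). Its levels were 388, 384 and 334 CPM in refed brains, 403, 406 and 375 CPM in sated brains and 378, 364 and 375 CPM in fasted brains. Refed sample 3 was the lowest of the 9 and the other samples lay within a narrow band in which the groups overlapped. The log2 fold change was −0.03 (SE 0.06) in refed against fasted brains, 0.08 (SE 0.04) in sated against fasted brains and −0.10 (SE 0.06) in refed against sated brains, with adjusted p of 0.947, 0.545 and 0.575 (edgeR's quasi-likelihood test). Without refed sample 3 the difference between refed and fasted brains changed sign to 0.05, and that between refed and sated brains shrank to −0.03.

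*usp* encodes Ultraspiracle, the fly ortholog of the vertebrate retinoid X receptors and the partner of EcR on DNA (chromosome X, 2038798 to 2042311, minus strand). It measured 58.9, 50.8 and 51.6 CPM in refed brains, 63.4, 52.7 and 57.4 CPM in sated brains and 55.6, 53.4 and 52.7 CPM in fasted brains. The 3 groups overlapped. The log2 fold changes of −0.02 in refed against fasted, 0.10 in sated against fasted and −0.11 in refed against sated brains had standard errors of 0.08, 0.08 and 0.09. Annotated exons of *usp* share 265 bases with *Actn* on the same strand, where reads cannot be assigned to either gene.

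Because EcR and Usp work as a pair, the counts of *EcR* were also divided by those of *usp* within each library, which needs no scaling for depth. There were between 6.36 and 7.71 counts of *EcR* for each count of *usp* in the 9 libraries, with no correction for gene length. The log2 ratio averaged 2.78 ± 0.12 in refed brains, 2.77 ± 0.15 in sated brains and 2.79 ± 0.036 in fasted brains (SD, n = 3 each). None of the 3 differences in means exceeded 0.013 on the log2 scale. An exact two-sided permutation test gave p = 1.0 for each, in a design of 20 possible splits that cannot go below 0.1.

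*Eip75B* encodes E75, an early ecdysone-induced receptor that binds heme and whose activity responds to nitric oxide (chromosome arm 3L, 17950953 to 18064696, minus strand). It was the most abundant of the 10, with 672, 603 and 541 CPM in refed brains, 706, 731 and 640 CPM in sated brains and 591, 618 and 646 CPM in fasted brains. Sated samples 1 and 2 were the highest of the 9 and refed sample 3 the lowest, but sated sample 3 lay below refed sample 1 and fasted sample 3, so the groups overlapped.

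In sated against fasted brains the log2 fold change of *Eip75B* was 0.16 (SE 0.05, 95% interval 0.04 to 0.28), with an unadjusted p of 0.0125 (5.05% of all genes were higher at an unadjusted p under 0.05) and an adjusted p of 0.351 (edgeR's quasi-likelihood test). DESeq2 gave the lowest adjusted p of any receptor and setting, 0.0656, for this difference. Without the 3 libraries of high opposite-strand share, which leaves fasted sample 3 as the only fasted sample, the value was 0.05.

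In refed against sated brains *Eip75B* gave −0.20 (SE 0.08, 95% interval −0.37 to −0.02), with an unadjusted p of 0.0292 (5.42% of all genes were lower at an unadjusted p under 0.05) and an adjusted p of 0.380 by the same test. The difference was −0.12 without refed sample 3, at an unadjusted p of 0.0680. In refed against fasted brains the value was −0.05 (SE 0.08, adjusted p = 0.917 by the same test), and without refed sample 3 it was 0.04.

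*Eip78C* encodes E78, a relative of E75 named for the ecdysone-induced chromosome puff at which it was found (chromosome arm 3L, 21226609 to 21266503, plus strand). It had 157, 159 and 144 CPM in refed brains, 148, 150.1 and 150.2 CPM in sated brains and 143, 137 and 153 CPM in fasted brains. The groups overlapped and the spread within sated brains was 1.02% of their mean. Log2 fold changes were 0.07 in refed against fasted, 0.04 in sated against fasted and 0.04 in refed against sated brains, with standard errors of 0.06, 0.05 and 0.05.

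*Hr39* encodes a receptor of the steroidogenic factor family, known in fly neurons as a competitor of Ftz-f1 during mushroom body remodeling (chromosome arm 2L, 21237250 to 21259675, plus strand). Its levels were 124, 120.1 and 112 CPM in refed brains, 113, 119.5 and 124 CPM in sated brains and 106, 126 and 119 CPM in fasted brains. The fasted samples held both the lowest and the highest value. None of its 3 log2 fold changes exceeded 0.03 in size, beside standard errors of 0.06 to 0.07.

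*Hr4* encodes an ecdysone-inducible receptor that times the hormone pulses of the larva (chromosome X, 1941940 to 2007956, plus strand). It was the scarcest of the 10, with 54 to 75 counts in a library. Its levels were 7.79, 7.62 and 7.82 CPM in refed brains, 8.40, 12.5 and 6.86 CPM in sated brains and 12.3, 11.5 and 9.53 CPM in fasted brains. All 3 refed samples lay below all 3 fasted samples, a separation in this direction that 4.75% of all genes tested showed, and the sated samples spanned both groups.

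The log2 fold change of *Hr4* in refed against fasted brains was −0.52 (SE 0.15, 95% interval −0.87 to −0.18). Its unadjusted p was 0.0075 (4.11% of all genes were lower at an unadjusted p under 0.05) and its adjusted p 0.688 by edgeR's quasi-likelihood test. In sated against fasted brains it was −0.27 (SE 0.22), and in refed against sated brains −0.23 (SE 0.21), both with overlapping groups. Leaving out single samples, the sated against fasted value ran from −0.53 without sated sample 2 to −0.089 without sated sample 3.

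*Hr4* was also the only receptor of the 10 with more counts on the opposite strand than on its own, 1352 against 554 over the 9 libraries, a ratio of 2.44 that ran between 1.67 and 3.50 among libraries. For the other 9 receptors the ratio over all libraries was between 0.083 and 0.163. Annotated exons of *Hr4* share 46 bases with *PIG-K*, a protein-coding gene on the opposite strand with 1186 counts on its own strand. Its part in the opposite-strand counts of *Hr4* was not tested. Opposite-strand levels of *Hr4* stayed between 19.1 and 25.1 CPM, while those of *EcR* went as high as 106 CPM in fasted sample 2, beside 29.8 CPM in refed sample 3. On its own strand, *Hr4* had 11.5 to 12.5 CPM in the 3 libraries of high opposite-strand share and 6.86 to 9.53 CPM in the other 6.

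Because 2 of those 3 libraries are fasted, the refed against fasted value of *Hr4* was recomputed with that share taken into account. It was −0.37 when the counts expected to have crossed from the opposite strand were subtracted and −0.36 with that share as a covariate of the fit. It was −0.31 without the 3 libraries, which leaves fasted sample 3 as the only fasted sample. In counts made without regard to strand it was −0.02, since there the opposite-strand reads outweigh the rest. The part of the opposite-strand reads in the *Hr4* difference beyond these values was not tested.

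**Figure D3:**
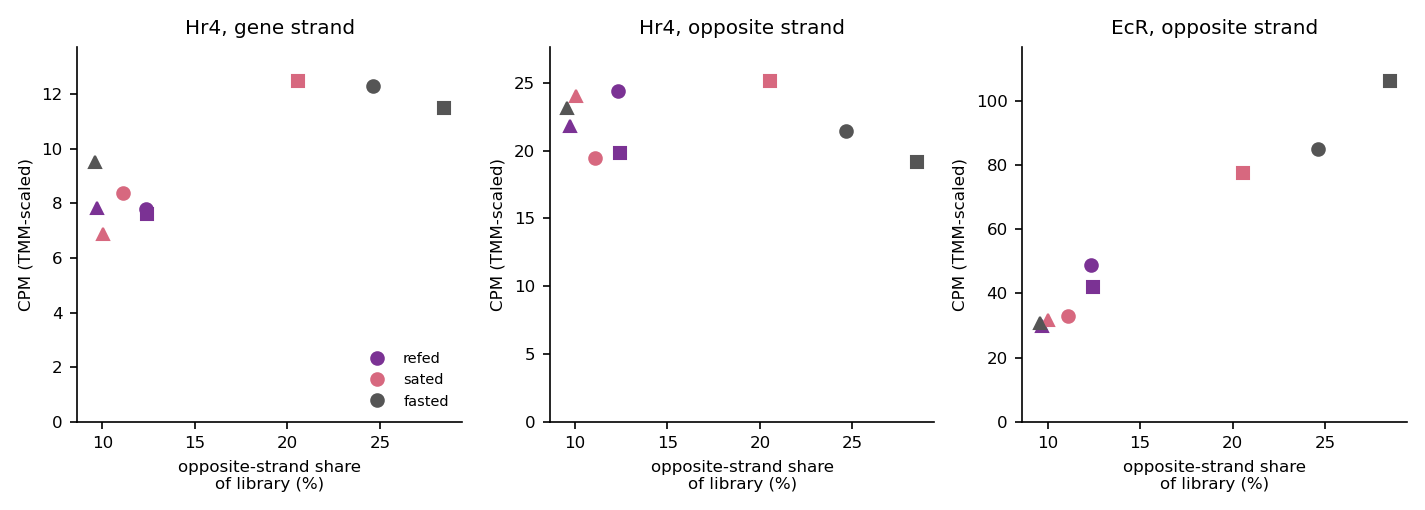
Level of *Hr4* on its own strand (left), of *Hr4* on the opposite strand (middle) and of *EcR* on the opposite strand (right) in CPM, against the share of each library's gene counts that fell on the opposite strand (horizontal axis, percent); colors give the nutritional state and circles, squares and triangles replicates 1, 2 and 3. *Hr4* on its own strand is at 11.5 to 12.5 CPM in the 3 libraries above 20% and at 6.86 to 9.53 CPM in the other 6, its opposite strand stays between 19.1 and 25.1 CPM, and that of *EcR* reaches 106 CPM.

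*Hr78* encodes a receptor of the testicular receptor family that is needed for growth and metamorphosis of the larva (chromosome arm 3L, 21494019 to 21497494, minus strand). Its levels were 33.4, 33.8 and 31.1 CPM in refed brains, 40.0, 34.3 and 37.5 CPM in sated brains and 33.9, 27.2 and 31.9 CPM in fasted brains. All 3 sated samples lay above all 3 samples of each other group, although sated sample 2 did so by less than 1 CPM. Such a separation was found for 7.87% of genes in sated against fasted brains (higher) and for 8.32% in refed against sated brains (lower).

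The log2 fold change of *Hr78* was 0.26 in sated against fasted brains (SE 0.10, 95% interval 0.04 to 0.48, unadjusted p = 0.0246, adjusted p = 0.433 by edgeR's quasi-likelihood test). In refed against sated brains it was −0.19 (SE 0.09, unadjusted p = 0.0476, adjusted p = 0.425 by the same test), and in refed against fasted brains 0.06 (SE 0.09). Without the 3 libraries of high opposite-strand share, the sated against fasted value was 0.28, with fasted sample 3 as the only fasted sample. The refed against sated value was −0.24 without sated sample 2, the only such library in that comparison. Counts made without regard to strand, which leave out reads shared with an antisense RNA over 443 bases of *Hr78* exons, gave 0.18 and −0.18.

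The sated samples, which held the 3 highest values of *Hr78* and the 2 highest of *Eip75B*, also stood apart in the summed level of retinal markers and in *apolpp*. The 7 retinal markers summed to between 1442 and 1653 CPM in refed brains, 1941 and 2119 CPM in sated brains and 1248 and 1713 CPM in fasted brains. All 7 had a log2 fold change above 0 in sated against fasted brains, but none passed the threshold (lowest adjusted p 0.117 by edgeR's quasi-likelihood test). In refed against sated brains 2 of them passed, both lower. *ninaE* varied within groups, with 5.10, 294 and 18.5 CPM in sated samples 1, 2 and 3. The 5 fat body markers summed to between 997 and 1457 CPM in refed brains, 1721 and 2373 CPM in sated brains and 1228 and 1499 CPM in fasted brains, nearly all of it from *apolpp*, with *Fbp2* at 0 in every library. All 3 sated samples lay above the other 6 in both sums. The part of these markers in the *Hr78* and *Eip75B* values was not tested.

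**Figure D4:**
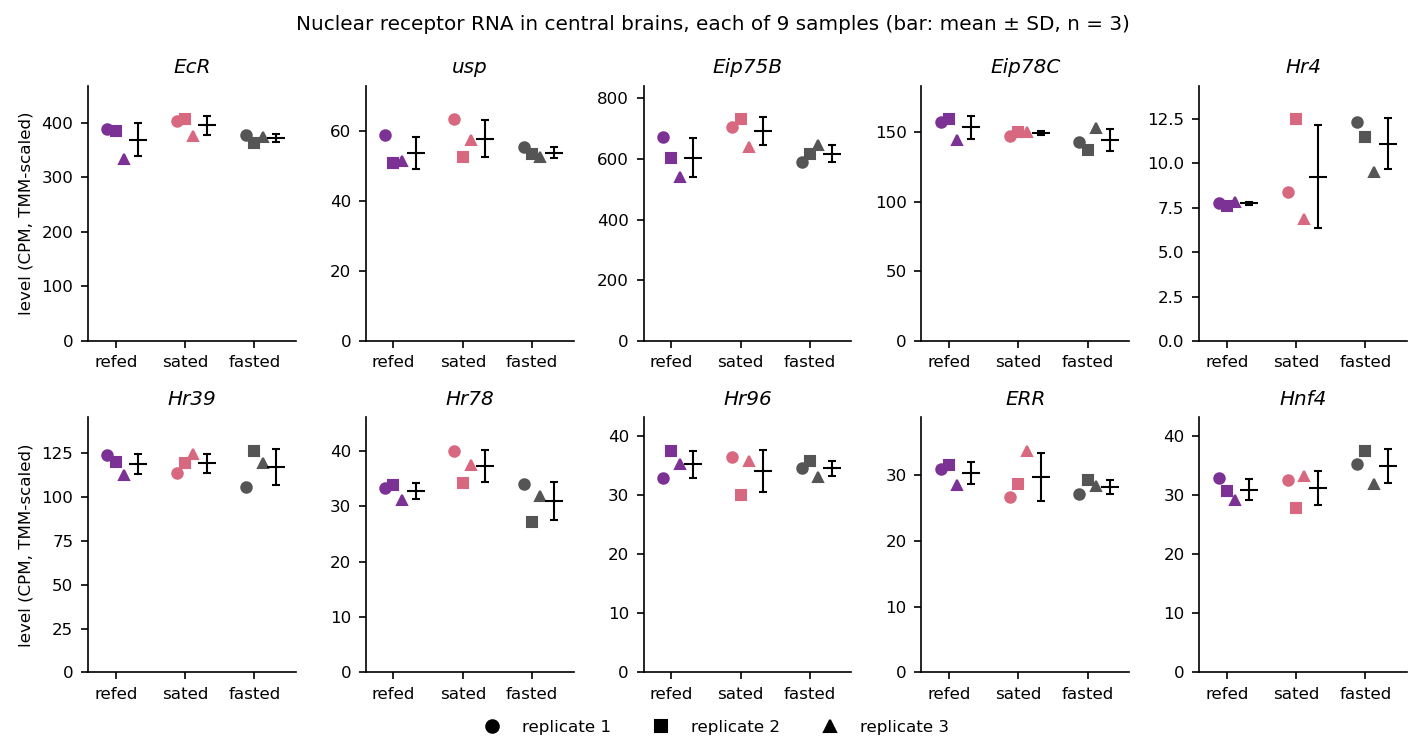
CPM of each receptor (vertical axis, from 0) in the 3 refed, 3 sated and 3 fasted samples, with the mean ± SD of each group beside its points (symbols mark replicates 1 to 3). Only *Hr4* (refed below fasted) and *Hr78* (sated above both other groups) have groups that do not overlap.

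*Hr96* encodes a receptor that binds cholesterol and controls sterol and fat handling in the gut (chromosome arm 3R, 25025235 to 25029351, plus strand). It had 33.0, 37.6 and 35.4 CPM in refed brains, 36.4, 30.1 and 35.8 CPM in sated brains and 34.7, 35.9 and 33.2 CPM in fasted brains. The groups overlapped throughout, and its log2 fold changes of 0.02, −0.01 and 0.04 in refed against fasted, sated against fasted and refed against sated brains were below their standard errors of 0.08, 0.09 and 0.10. The 6 sterol and lipid uptake genes listed as its known targets in the gut (*mag*, *Lip3*, *Npc1b* and 3 *Npc2* genes) all had too few counts to be tested, with no sample above 0.96 CPM.

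*ERR* encodes the estrogen-related receptor, which turns on glycolytic genes in the growing embryo and larva (chromosome arm 3L, 8183361 to 8186671, minus strand). Its levels were 30.9, 31.5 and 28.4 CPM in refed brains, 26.7, 28.7 and 33.7 CPM in sated brains and 27.0, 29.2 and 28.3 CPM in fasted brains. The sated samples held both the lowest and the highest of the 9. The log2 fold change was 0.09 (SE 0.08) in refed against fasted, 0.08 (SE 0.10) in sated against fasted and 0.02 (SE 0.10) in refed against sated brains.

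The level of *ERR* depends on the strand column. Its annotated exons share 735 and 416 bases with a pair of antisense RNA genes on the opposite strand, asRNA:CR45870 and asRNA:CR45869, and counting without regard to strand kept only 405 of its 1804 counts. In those counts the log2 fold change was 0.39 in refed against fasted and 0.53 in sated against fasted brains, with sated against fasted at an unadjusted p of 0.0296 and an adjusted p of 0.395 by edgeR's quasi-likelihood test. In refed against sated brains it was −0.15.

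Of the 14 glycolytic and pentose phosphate genes, the kind of target *ERR* is known for at other stages, all were tested and 1 passed. *Hex-A*, encoding the hexokinase that starts glycolysis, had 379.5, 384 and 331 CPM in refed brains, 420.2, 420.0 and 388 CPM in sated brains and 350.5, 320.4 and 335 CPM in fasted brains. In sated against fasted brains that is a log2 fold change of 0.28 (SE 0.05, adjusted p = 0.0412 by edgeR's quasi-likelihood test). The groups did not overlap, a separation in this direction that 7.87% of all genes tested showed. The call was lost when any of the 6 samples was left out, with adjusted p of 0.0578 to 0.310 by the same test. It was also lost in other settings, given at the end, although the log2 fold change without single samples stayed between 0.25 and 0.32. Without the 3 libraries of high opposite-strand share it was 0.26, with fasted sample 3 as the only fasted sample. In the same comparison the retinal markers summed to between 1941 and 2119 CPM in sated brains, against 1248 and 1713 CPM in fasted brains, and *apolpp* had a log2 fold change of 0.61. Their part in the *Hex-A* value was not tested. Refed brains lay between on average and did not differ past the threshold from either. None of the 14 passed in the other comparisons, and their median log2 fold changes were 0.02 in refed against fasted, 0.03 in sated against fasted and −0.02 in refed against sated brains.

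*Ldh*, lactate dehydrogenase, had the lowest fitted value of the list, −2.25 in refed against fasted brains (SE 0.69, unadjusted p = 0.0098, adjusted p = 0.697 by edgeR's quasi-likelihood test). Its levels were 2.47, 2.36 and 3.02 CPM in refed brains, against 2.61, 27.4 and 8.0 CPM in fasted brains. Fasted sample 1 lay within the range of refed brains, and fasted sample 2 was by far the highest of the 9, a sample in which the muscle markers also summed to 178 CPM against at most 49.8 CPM elsewhere.

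*Hnf4* encodes a receptor of fatty acids that drives fat oxidation in starved larvae and glucose handling in adults (chromosome arm 2L, 8687226 to 8709611, minus strand). It had 32.8, 30.6 and 29.2 CPM in refed brains, 32.5, 27.8 and 33.2 CPM in sated brains and 35.3, 37.5 and 31.9 CPM in fasted brains. Fasted samples 1 and 2 were the highest of the 9, and fasted sample 3 lay within the range of the fed samples. Log2 fold changes were −0.18 (SE 0.09, adjusted p = 0.705 by edgeR's quasi-likelihood test) in refed against fasted, −0.15 (SE 0.10) in sated against fasted and −0.02 (SE 0.09) in refed against sated brains. Leaving out the 3 libraries of high opposite-strand share, 2 of which are fasted samples 1 and 2, kept fasted sample 3 as the only fasted sample. The refed against fasted value was then −0.052 and the sated against fasted value 0.04. Without fasted sample 2 alone they were −0.12 and −0.099, and without sated sample 2 the sated against fasted value was −0.077.

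Of 12 fatty acid beta-oxidation genes, the class that Hnf4 controls in larvae, 11 were tested and none passed in any comparison. The median log2 fold changes were −0.06 in refed against fasted, −0.02 in sated against fasted and 0.01 in refed against sated brains. In refed against fasted brains the 3 genes nearest the threshold were *yip2*, a thiolase gene, at −0.48, *Thiolase* at −0.26 and *Etfb*, an electron transfer flavoprotein gene, at 0.29. For *yip2* the levels were 21.8, 22.3 and 18.5 CPM in refed brains, against 31.0, 32.2 and 24.1 CPM in fasted brains, and its adjusted p was 0.674 (edgeR's quasi-likelihood test).

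Among the rest of the family, *Hr38* alone passed the test. Of the 11 other nuclear receptors, 7 were tested in refed against fasted brains and 6 in each of the other comparisons, and *Hr38* is an orphan receptor known to be induced by neuronal activity. It had 103, 92.6 and 86.0 CPM in refed brains, 265, 268 and 168 CPM in sated brains and 49.8, 50.8 and 53.1 CPM in fasted brains. Its log2 fold changes were 0.86 in refed against fasted, 2.18 in sated against fasted and −1.31 in refed against sated brains, with adjusted p of 0.0062, 0.00050 and 0.0158 (edgeR's quasi-likelihood test). Leaving out single samples, the call was lost in refed against fasted brains without fasted sample 1 (adjusted p = 0.0569 by the same test) and in refed against sated brains without sated sample 1 (0.129) or refed sample 2 (0.0747). Other settings that lost a call of *Hr38*, in each comparison, are given at the end. None of the 10 receptors had all 3 groups apart as *Hr38* did, and the share of all genes that did was not computed.

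Genes that make or break down ecdysone were barely present, while those that carry and sense it were. Of 13 genes for its synthesis, uptake and turnover, 5 or 6 were tested in each comparison and none passed. The biosynthetic enzyme genes *spo*, *spok*, *sro*, *phm*, *sad* and *shd* had at most 1.31 CPM in any sample and *dib* at most 3.83 CPM. The breakdown gene *Cyp18a1* had at most 2.85 CPM. *Oatp74D*, the importer that brings the hormone into cells, had 39.1 to 57.3 CPM and *DopEcR*, a membrane receptor for ecdysone and dopamine, 345 to 381 CPM. In refed against fasted brains *Start1*, a putative sterol carrier, had the list's smallest unadjusted p, 0.0288 (all genes under 0.05: 6.77%). Its log2 fold change was 0.22 and its adjusted p 0.705 (edgeR's quasi-likelihood test). In refed against sated brains 1 of the 5 tested genes was lower at an unadjusted p under 0.05 (all genes: 5.42%). The lowest adjusted p of the list there was 0.381 by the same test.

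Of 13 genes known as ecdysone-inducible, 11 were tested and none passed. Their median log2 fold changes were −0.03 in refed against fasted, −0.05 in sated against fasted and 0.01 in refed against sated brains. *Eip71CD*, a methionine sulfoxide reductase gene, had 66.1, 70.1 and 65.6 CPM in refed brains, 59.1, 48.9 and 54.6 CPM in sated brains and 60.4, 51.6 and 52.3 CPM in fasted brains. Log2 fold changes of refed brains were 0.28 against fasted and 0.31 against sated brains, with adjusted p of 0.652 and 0.168 (edgeR's quasi-likelihood test). *ImpE1* had 20.5, 22.0 and 17.5 CPM in sated brains, against 23.1, 31.6 and 31.3 CPM in fasted brains, a log2 fold change of −0.53 (SE 0.14, adjusted p = 0.201 by the same test). All 8 cofactor genes were tested, and none passed in any comparison. Nearest to the threshold in refed against fasted brains were *trr*, which encodes a histone methyltransferase that works with EcR, at a log2 fold change of 0.12 (SE 0.05), and the co-repressor gene *Smr* at −0.09 (SE 0.04), both with an adjusted p of 0.705 by the same test.

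**Figure D5:**
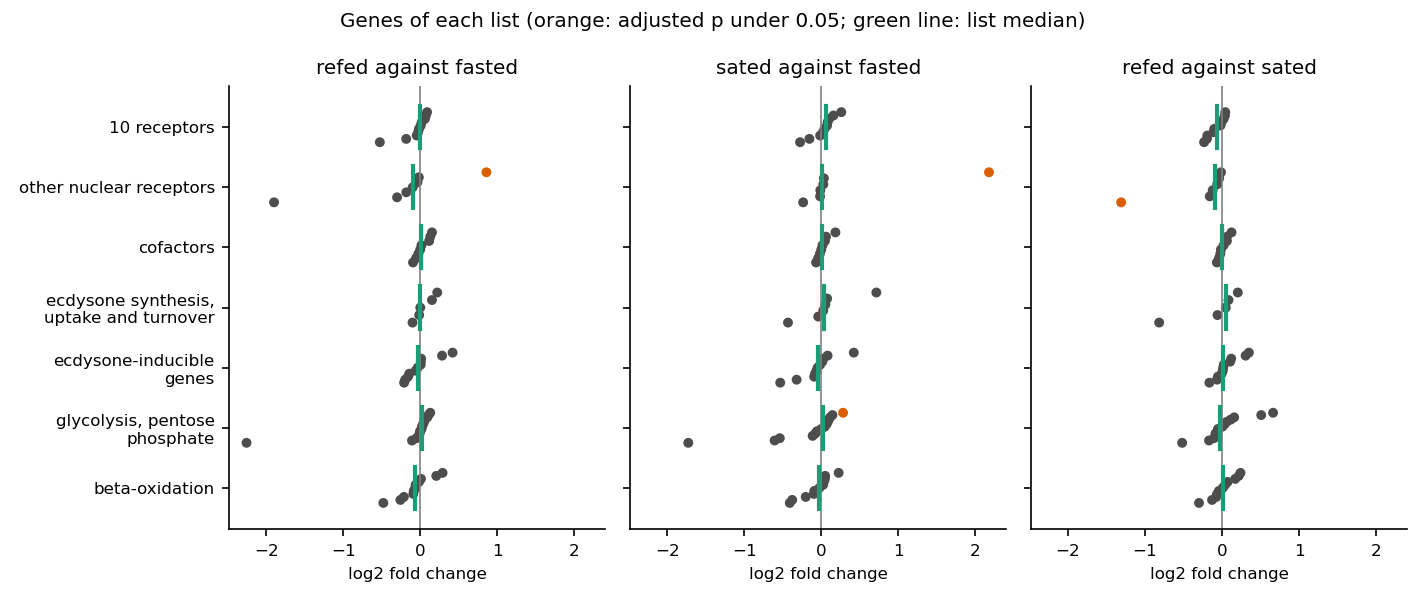
Log2 fold changes (horizontal axis) of the tested genes of each list in the 3 comparisons, with the list's median as a green line and genes of adjusted p under 0.05 in orange. Orange points are *Hr38* among the other nuclear receptors in each comparison (0.86, 2.18 and −1.31) and *Hex-A* among the glycolytic genes in sated against fasted brains (0.28); the 10 receptors have none.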

How the data were processed

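Male flies that had been refed, sated or fasted gave 3 RNA samples each (central brains, pools of 10 brains, described as biological replicates, so p-values measure the spread between pools). RNA was ribo-depleted and DNase treated and libraries were made with a Nugen Ovation kit. Reads were aligned with STAR by the authors, and the deposited values are raw counts per gene, not normalized: unstranded, on the gene's strand and on the opposite strand. The submitters' processing notes name the build BDGP6, and the annotation release is not given in the sources used here. Gene-strand counts were used here. Reads not placed on a gene (unmapped, multimapping, no feature, ambiguous) were 42.5% to 60.3% of all and stayed out of library sizes. Symbols and coordinates come from Ensembl release 115, in which 17215 of the 17489 gene IDs were found; IDs of 3 listed genes were not matched and are not analysed here.

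In R 4.3.3, edgeR 4.0.16 was used (filterByExpr, TMM, glmQLFit, glmQLFTest, Benjamini-Hochberg over all genes tested, threshold 0.05), on the 6 samples of each comparison. SE is the absolute log2 fold change over the square root of F. CPM were scaled with TMM over all 9 samples, and lengths are merged exons. DESeq2 1.42.0 was an alternative. The other alternatives are given at the end. Counting error is largest for *Hr4*, with 54 to 75 counts a library. Reads carry no molecular identifiers. Opposite-strand carry-over was estimated on 342 isolated genes (no neighbor within 500 bases, mean count 100 or more), as 5.63% to 26.4% of gene-strand counts. Replicates of a group differed beyond sampling noise in every pair. The procedures were tested on simulated counts.

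The receptors and lists were chosen with earlier results of these data known. Named are all 10 receptors and, of each list, genes past the threshold and otherwise up to 3 with the smallest unadjusted p. The genes named for the level of hormone synthesis, breakdown, uptake and sensing were chosen after their values were seen. So were those named for cell markers or for refed sample 3. Protein sequences of the receptors are not used here.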

Additional observations from a re-analysis of the deposited data

How the results depend on the processing

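Across 18 alternatives in each comparison, the 10 receptors gave 540 values. Of these, 498 kept the direction of the main value and 42 changed it. The setting without the 3 libraries of high opposite-strand share was chosen after seeing the data and leaves fasted sample 3 as the only fasted sample. This setting does not count toward whether a gene passed. In refed against sated brains it is the same fit as without sated sample 2, so those values are counted 2 times. Among the values that changed direction, the largest main value was *Hr4* in sated against fasted brains, 0.27 in size on the log2 scale. The count of calls over all genes moved far more. In refed against fasted brains it was 10, against 28 with DESeq2, 31 with no filter, 20 in counts without strand and 6 with a covariate for opposite-strand share. In sated against fasted brains it was 24, against 110 with DESeq2, 75 with no filter, 55 in counts without strand, 59 with carry-over subtracted, 65 with the covariate, 65 with robust empirical Bayes and 204 without the 3 libraries of high opposite-strand share, a setting chosen after seeing the data. In refed against sated brains it was 16, against 51 with DESeq2, 25 with upper-quartile normalization, 121 with no filter, 7 with 10 counts required in every sample, 53 with all 9 samples in one fit, 41 in counts without strand, 32 with carry-over subtracted and 34 with robust empirical Bayes. Leaving out single samples gave 2 to 264 calls in refed against fasted brains (264 without fasted sample 3, 2 without fasted sample 1, 4 or 5 without the others), 5 to 30 in sated against fasted brains (5 without sated sample 1, 6 without fasted sample 1, 10 without sated sample 3, 14 without sated sample 2) and 2 to 75 in refed against sated brains (75 without refed sample 3, 2 without sated sample 1, 5 without refed sample 2, 7 without refed sample 1 or sated sample 3). The causes were not tested.

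With replicate number as a block, calls were 6 in refed against fasted, 72 in sated against fasted and 11 in refed against sated brains, and no receptor passed. Same-numbered samples deviated together with correlations of −0.00072 to 0.177, 0.0910 to 0.394 and −0.108 to −0.00039 in these comparisons, and 1, 2 and 0 of 3 samples correlated best with their own number. In sated against fasted brains the mean correlation was 0.290 for same-numbered samples and −0.148 for the others. Whether same-numbered samples share more than a number was not tested. Leaving out single samples, *Hr38* passed in 5 of 6 in refed against fasted, 6 of 6 in sated against fasted and 4 of 6 in refed against sated brains. *Hex-A* passed in 0 of 6 in sated against fasted brains. With all 9 samples in one fit, *Hr38* did not pass in refed against fasted brains (adjusted p = 0.102 by edgeR's quasi-likelihood test). With robust empirical Bayes it did not pass in sated against fasted (0.0689) or refed against sated brains (0.152, same test). *Hex-A* in sated against fasted brains did not pass with upper-quartile normalization (0.0676) or all 9 samples in one fit (0.108, same test).

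Sign changes among the receptors, all of values that had not passed the threshold, were these. In refed against fasted brains, *usp* gave 0.0048 with no filter, 0.016 with the covariate and 0.022 without the 3 libraries, and *Hr39* −0.0078 with carry-over subtracted and −0.0100 without the 3 libraries. In sated against fasted brains without the 3 libraries, *Eip78C* gave −0.040, *Hr39* −0.0029, *Hr96* 0.12 and *Hnf4* 0.040, and *Hr4* gave 0.038 in counts without strand. In refed against sated brains without sated sample 2, the only such library in that comparison, *Hr4* gave 0.024, *Hr96* −0.037 and *ERR* −0.0048. There *Hr96* was −0.0063 with the covariate and *ERR* −0.15 in counts without strand. Leaving out single samples, refed against fasted values ran from −0.12 to 0.039 for *Eip75B*, −0.056 to 0.049 for *EcR*, −0.076 to 0.024 for *usp*, −0.054 to 0.069 for *Hr39*, −0.0089 to 0.13 for *Hr78* and −0.027 to 0.077 for *Hr96*. Sated against fasted values ran from −0.046 to 0.075 for *Hr39*, −0.062 to 0.068 for *Hr96* and −0.029 to 0.15 for *ERR*. Refed against sated values ran from −0.42 to 0.024 for *Hr4*, −0.040 to 0.032 for *Hr39*, −0.037 to 0.091 for *Hr96*, −0.049 to 0.13 for *ERR* and −0.092 to 0.032 for *Hnf4*. The difference in the log2 ratio of *EcR* to *usp* in refed against fasted brains was 0.0052 in counts without strand, and without single samples it ran from −0.080 to 0.031. It ran from −0.099 to 0.040 in sated against fasted and from −0.067 to 0.089 in refed against sated brains.

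With 3 samples a group, the 95% intervals of *Hr78* and *Eip75B* reached close to 0, and for *Hr4* the low counts and the opposite-strand reads limit the value further. The labels describe more replicates than the 3 samples per group analysed here.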

Other observations

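Refed sample 3, which had the lowest *Eip75B* and *EcR* of the 9 samples, was the lowest of the 9 for 14.9% of the 9250 genes that passed the filter on all samples. The share in the other samples was 8.02% to 13.9%. It was lowest for 5 of 11 ecdysone-inducible genes, 4 of 7 other nuclear receptors, 2 of the 10 receptors and 0 of 14 glycolytic genes, and also for all 4 neuronal markers and 1 of 5 glial markers. *Hr3*, a receptor that acts downstream of ecdysone, had 69.1 CPM there, against 93.5 to 100.2 CPM in the other 8 samples. *ftz-f1* had 202 CPM in refed sample 3 and 243 to 267 CPM elsewhere, and *Eip93F*, an ecdysone-induced transcription factor gene, 333 CPM against 450.5 to 511 CPM. The neuronal marker *Syt1* had 2033 CPM against 2321 to 2605 CPM, and the glial marker *repo* 202 CPM against 233 to 263 CPM. The glial markers *alrm* (167 CPM) and *Gs2* (1313 CPM) went the other way and were highest in refed sample 3. *jhamt*, which encodes the enzyme that completes juvenile hormone in the corpora allata, was at 0 counts in refed sample 3 and had 2.62 to 16.0 CPM in the others. These genes were singled out after their values were seen, and what sets this sample apart was not tested.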
